A study of Mus musculus with 12 samples.

Results

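Genes of the receptors for glutamate, GABA and glycine were followed in spinal cord RNA of mice, together with 2 chloride cotransporters, Slc12a2 and Slc12a5. Members were chosen by symbol alone: the Gria, Grin, Grik, Grid, Grm, Gabra, Gabrb, Gabrg and Glra families, plus Gabrd, Gabre, Gabrq, Gabbr1, Glrb and both cotransporters. They came to 42 of the 18194 genes with a named probe set. RefSeq lists 50 genes that fit the same rule; 8 of them were not analysed here. Each value is a log2 signal, so a difference of 1 is a factor of 2 in signal, and signals of different genes were not set against each other because their probes differ.

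The 12 arrays formed 4 groups of 3 biological replicates, with wild-type and Olig2cre/DA-Cat mice each sampled on day 4 and on day 15. In the Olig2cre/DA-Cat mice Cre recombinase is driven from Olig2, a gene used by the oligodendrocyte lineage and by progenitors of motor neurons, and DA-Cat is a dominant-active form of β-catenin, which carries the canonical Wnt signal; the controls were wild-type littermates, and no group carried Cre alone. How many animals went into a sample is not stated, and p-values therefore measure the spread between these samples. The labels tag the days as developmental stages. Yet every sample also carries a note on 1% lysolecithin, a detergent that strips myelin, injected into ventrolateral white matter. The protocol describes adults of 8 to 10 weeks. It gives 14 days after the lesion for every sample, whether labelled day 4 or day 15. What the days count from is therefore not settled here. The source label names white matter, while the titles name spinal cord. The 16 genes of a pan-neuron list had a mean level between 11.95 and 12.23 on every array, and array medians were 6.14 to 6.19. The mean level was 7.05 to 7.58 for 10 motor neuron genes and 4.90 to 5.54 for the 6 measured of 10 dorsal root ganglion genes. Of those 6, 2 had means under 5 in every group, and Isl1 is in both lists. Because probes differ, these levels do not rank how much RNA of each cell type was present. Skeletal muscle genes varied from array to array, with a mean level between 5.05 and 10.51; it was highest on Olig2cre/DA-Cat day 15 replicate 1.

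Fast excitation in the spinal cord runs through glutamate-gated channels of the AMPA, NMDA and kainate types, each assembled from several subunits, while metabotropic receptors act through G proteins. Inhibition runs through chloride channels gated by GABA or glycine, and through GABA-B receptors coupled to G proteins. Many of these receptors exchange subunits during postnatal life: glycine receptors are known to change from alpha subunit Glra2 to Glra1, and NMDA receptors lose Grin2b, Grin2d and Grin3a. Whether GABA and glycine excite or inhibit depends on chloride inside the cell, which Slc12a2 (NKCC1) raises and Slc12a5 (KCC2) lowers.

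Between day 4 and day 15 the receptor genes mostly fell. In wild type 23 of the 42 were lower at day 15 and 6 were higher, where 23.6% of all genes were lower and 21.3% were higher by the same limma fit and threshold (Benjamini-Hochberg adjusted p under 0.05 over all genes). The median difference was -0.33 over the members and -0.02 over all genes. In Olig2cre/DA-Cat 24 were lower and 7 higher, where 26.3% and 21.8% of all genes were, with medians of -0.30 and 0.00. The 23 genes lower in wild type were all lower in Olig2cre/DA-Cat too, and 5 genes were higher in both. Each of these called differences was one in which the 3 values of one day did not overlap the 3 of the other. Choosing genes by p largely ensures this, so it adds no support to the calls. Falls of at least 2-fold in wild type were those of Glra2, Grm3, Grik3, Grin2d, Grik1 and Grm5, and rises of at least 2-fold were those of Slc12a2, Grin2c and Glra1. In bulk RNA, fewer cells of a type and less RNA per cell cannot be told apart. Beside these changes, 9 of the 16 pan-neuron genes fell and 6 rose in wild type, with a median of -0.19, and their mean level was 12.09 to 12.16 on the day 4 arrays and 11.95 to 11.99 on the day 15 arrays; their part in the receptor differences was not tested. In wild type, of 5 excitatory neuron genes 4 fell and 1 rose, of 6 inhibitory neuron genes 4 fell and 1 rose, of 10 motor neuron genes 3 fell and 0 rose, and of 8 microglia genes 8 rose.

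**Figure D1:**
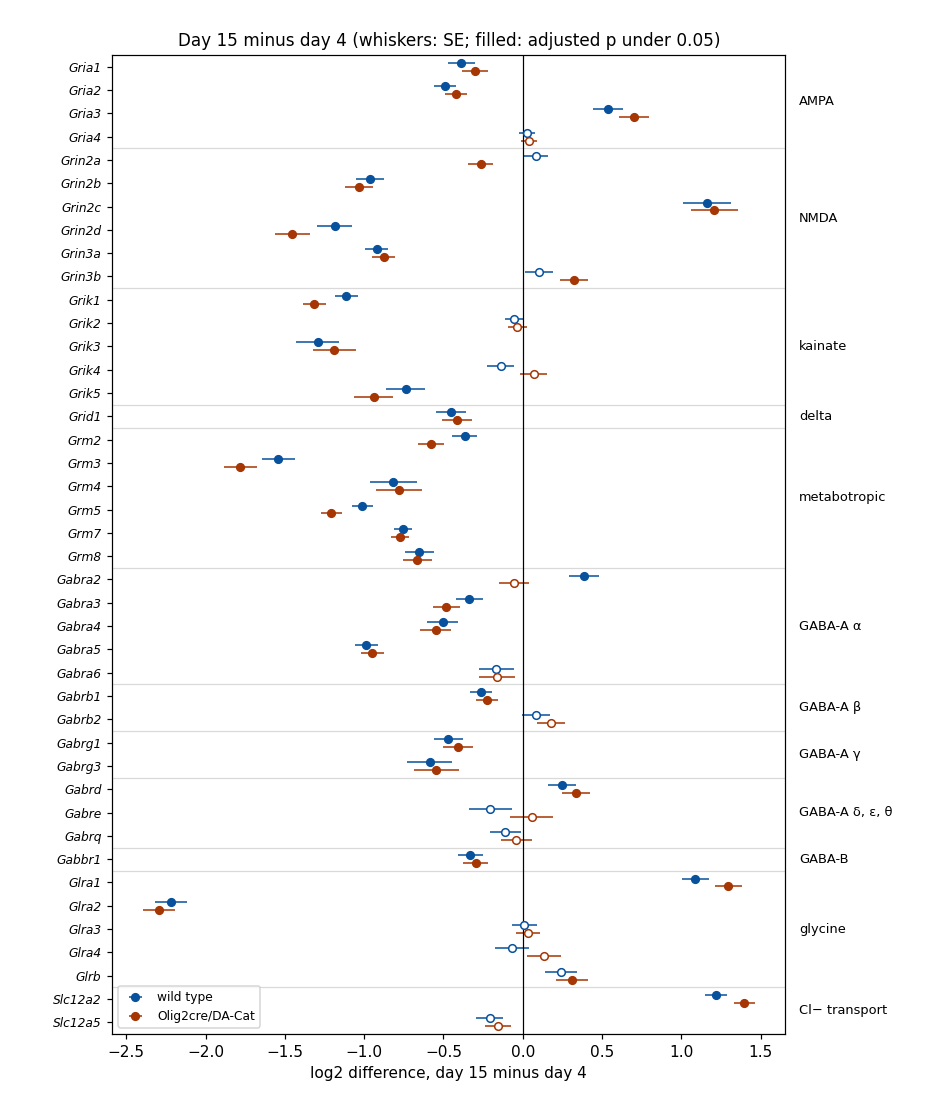
Log2 difference between day 15 and day 4 for each of the 42 genes (rows, by family), in wild type (blue) and Olig2cre/DA-Cat (brown), with whiskers of 1 SE and filled points for adjusted p under 0.05. Most points lie left of 0, Glra2 farthest at -2.22 in wild type, while Glra1, Grin2c and Slc12a2 lie to the right at 1.09, 1.16 and 1.22.

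Sequences at the start sites were looked up for some of the genes on which these results turn. Of the 42 genes 30 had a window in RefSeq's table of GRCm38.p6, and several genes had more than 1 window. Each window held 300 bases, from 250 before to 50 after the start of transcription. Glra1 and Slc12a2 were among the genes without a window and were not searched. The windows of Glra2, the gene with the largest fall, and of the NMDA subunits Grin2d and Grin2c, which moved in opposite directions, are shown on the strand of the gene. Capitals mark the GC box (GGGCGG), the TATA box (TATAAA) and the core of the TCF/LEF site (CTTTGAT), each searched on both strands.
Glra2, chrX:165327344-165327643, minus strand: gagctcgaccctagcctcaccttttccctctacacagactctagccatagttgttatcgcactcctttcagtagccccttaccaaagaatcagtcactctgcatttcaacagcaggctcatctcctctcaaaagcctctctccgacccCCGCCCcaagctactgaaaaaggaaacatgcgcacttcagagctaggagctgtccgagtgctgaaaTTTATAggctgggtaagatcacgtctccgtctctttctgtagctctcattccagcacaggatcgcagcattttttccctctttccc
Grin2d, chr7:45866632-45866931, minus strand: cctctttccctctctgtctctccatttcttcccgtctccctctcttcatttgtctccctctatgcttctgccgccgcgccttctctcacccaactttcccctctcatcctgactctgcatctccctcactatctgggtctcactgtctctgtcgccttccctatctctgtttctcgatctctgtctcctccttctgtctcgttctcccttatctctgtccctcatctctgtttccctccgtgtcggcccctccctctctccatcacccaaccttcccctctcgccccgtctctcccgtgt
Grin2c, chr11:115267194-115267493, minus strand: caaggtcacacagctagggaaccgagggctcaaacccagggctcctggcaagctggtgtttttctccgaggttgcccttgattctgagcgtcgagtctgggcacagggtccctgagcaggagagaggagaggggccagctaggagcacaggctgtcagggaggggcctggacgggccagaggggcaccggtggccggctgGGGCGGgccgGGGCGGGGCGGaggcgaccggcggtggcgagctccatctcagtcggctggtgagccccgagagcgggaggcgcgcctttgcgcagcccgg

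The Glra2 window held letters of 1 GC box and 1 TATA box, both on the strand opposite to that of the gene. The Grin2c window held 3 GC boxes, of which 2 overlap, and none of the motifs was found in the Grin2d window. The bases were 50.3% G or C for Glra2, 56.0% for Grin2d and 70.0% for Grin2c. Over all 38 windows of the receptor genes, 55.3% held a GC box, 13.2% a TATA box and 2.63% a TCF/LEF core, beside 35.7%, 13.6% and 3.73% of all 32851 RefSeq windows. A GC box was found in 11 of the 21 windows of genes that fell in wild type, in both windows of genes that rose, and in 8 of the 15 windows of genes that were not called. These are matches of letters in a fixed window and show no binding.

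The glycine receptor subunits gave the largest fall and one of the largest rises. Glra2, an alpha subunit of the immature receptor, read 9.94, 9.84 and 9.83 on the wild-type arrays of day 4 and 7.52, 7.65 and 7.79 on those of day 15. Every day 15 value lay under every day 4 value. The fall was 2.22 ± 0.10 (SE, adjusted p = 1.5e-08), or 4.65-fold. In Olig2cre/DA-Cat Glra2 went from 10.03, 10.11 and 10.22 to 7.59, 7.94 and 7.94, a fall of 2.30 ± 0.10 (SE, adjusted p = 6.19e-09). Glra1, the alpha subunit of the adult receptor, read 9.55, 9.39 and 9.46 at day 4 and 10.59, 10.52 and 10.56 at day 15 in wild type. It rose by 1.09 ± 0.09 (SE, adjusted p = 7.31e-07), and by 1.30 ± 0.09 (SE, adjusted p = 1.43e-07) in Olig2cre/DA-Cat, where it read 9.45, 9.33 and 9.27 and then 10.76, 10.44 and 10.74. The groups of both genes were apart in both genotypes, and the other probe set of Glra1 differed by 1.12 in wild type. Glrb, the beta subunit that ties the receptor to its scaffold, differed by 0.24 in wild type (adjusted p = 0.0763) and rose by 0.31 in Olig2cre/DA-Cat, from 10.20, 9.92 and 10.22 to 10.55, 10.44 and 10.28 (adjusted p = 0.0232); this last call was lost without Olig2cre/DA-Cat day 15 replicate 1 or 2 or day 4 replicate 2. Its other probe set was higher by 0.41 in wild type (adjusted p = 0.00136). Glra3 had group means of 8.88 and 8.89 in wild type, a difference of 0.01, and Glra4 lay under 5, near background, in all 4 groups.

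**Figure D2:**
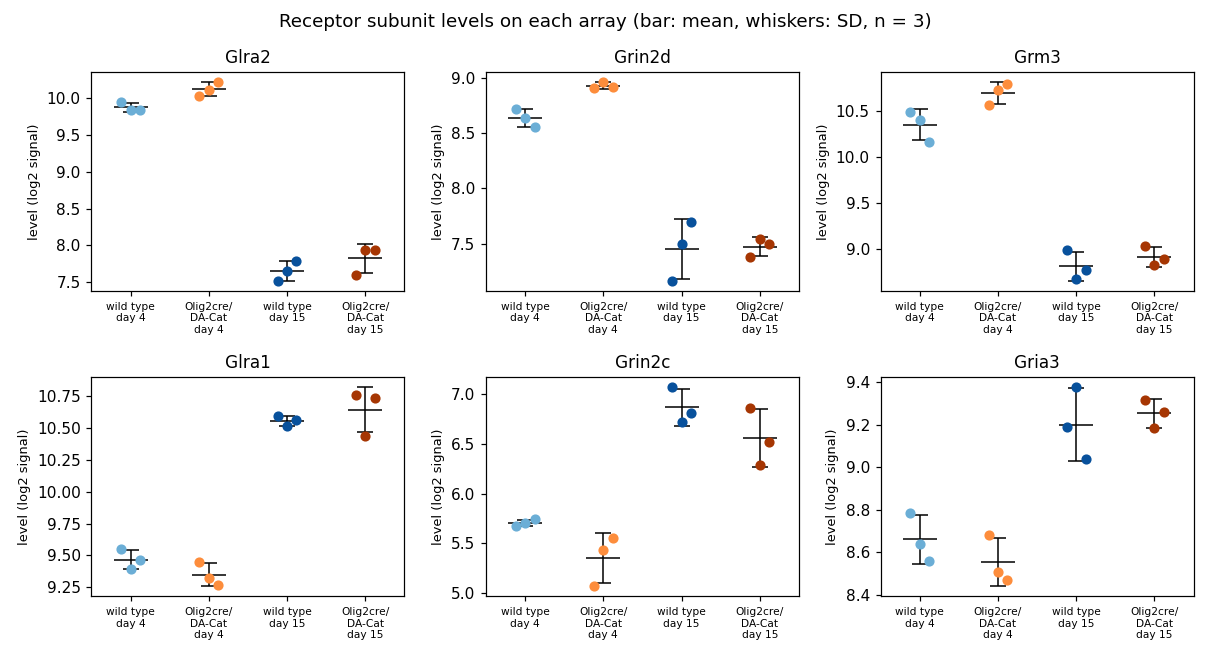
Log2 signal (vertical axis) of 6 subunit genes on each of the 12 arrays, with the mean and SD of the 3 arrays per group. Glra2, Grin2d and Grm3 were lower at day 15 and Glra1, Grin2c and Gria3 were higher, without overlap between the days in either genotype.

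The NMDA receptor genes moved in both directions. Grin2b, a subunit that prevails in young neurons, fell by 0.96 ± 0.09 (SE, adjusted p = 3.03e-06) in wild type, from 8.93, 8.60 and 8.79 to 7.82, 7.88 and 7.73. Grin2d, which gives slow channels with weak magnesium block, read 8.72, 8.64 and 8.55 at day 4 and 7.16, 7.49 and 7.69 at day 15. All 3 later values were lower, and the fall was 1.19 ± 0.11 (SE, adjusted p = 2.57e-06). Grin3a, which lowers calcium entry through the channel, fell by 0.92 (adjusted p = 8.09e-07), and all 3 of its probe sets were called lower. Grin2c, known from cerebellar granule cells and astrocytes, rose instead, from 5.67, 5.70 and 5.74 to 7.07, 6.72 and 6.81. That rise was 1.16 ± 0.15 (SE, adjusted p = 4.34e-05). These 4 genes moved the same way in Olig2cre/DA-Cat. Grin2b fell by 1.03, from 9.09, 9.05 and 9.03 to 8.15, 8.05 and 7.88, and Grin3a fell by 0.88. Grin2d fell by 1.45, from 8.90, 8.96 and 8.91 to 7.38, 7.54 and 7.50. Grin2c rose by 1.21, from 5.07, 5.43 and 5.55 to 6.86, 6.29 and 6.52. In each case the days were apart. Grin3b, the other subunit of this kind, differed by 0.10 in wild type (adjusted p = 0.394) and rose by 0.32 in Olig2cre/DA-Cat, from 5.45, 5.54 and 5.67 to 5.96, 5.67 and 5.99 (adjusted p = 0.00998). Grin2a, a subunit of mature receptors, lay under 5 in all 4 groups and is limited by background. It read 3.93, 3.99 and 4.17 and then 4.24, 4.05 and 4.05 in wild type, a difference of 0.08. In Olig2cre/DA-Cat it read 4.31, 4.27 and 4.36 and then 4.11, 4.07 and 3.96, a difference of -0.27 (adjusted p = 0.0127). The gene has 1 probe set here, and the call in Olig2cre/DA-Cat was lost without Olig2cre/DA-Cat day 15 replicate 3. Probe sets disagreed for Grin2b, where another differed by -1.01 but a dim one by 0.09, and for Grin2d, whose other probe set differed by -0.04.

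Of the 4 AMPA receptor genes, which form the fast glutamate channels, Gria1 and Gria2 fell and Gria3 rose. Gria2, which keeps calcium out of the channel, went from 11.16, 11.12 and 11.15 to 10.63, 10.79 and 10.54 in wild type, a fall of 0.49 ± 0.07 (SE, adjusted p = 9.51e-05); its 3 probe sets were all called lower there. Gria1 fell by 0.39 (adjusted p = 0.0022), though its other probe set differed by -0.07. Gria3 rose from 8.79, 8.64 and 8.56 to 9.19, 9.38 and 9.04, by 0.54 ± 0.09 (SE, adjusted p = 0.000462), and from 8.68, 8.51 and 8.47 to 9.32, 9.18 and 9.26, by 0.70, in Olig2cre/DA-Cat. Both of its probe sets were higher at day 15, the other by 0.71 in wild type. Gria4 differed by 0.02 in wild type, with a 95% interval of -0.09 to 0.14, and one of its other probe sets by -0.29. In Olig2cre/DA-Cat the falls were 0.30 for Gria1 and 0.42 for Gria2. The call of Gria1 was lost there with averaged probe sets, and its other probe set differed by 0.06. The other probe sets of Gria2 differed there by -0.77 and -0.14 (limma adjusted p = 5.71e-06 and 0.492).

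Of the 5 kainate receptor genes 3 fell and 0 rose in each genotype. Grik3, a subunit of low glutamate affinity, read 8.60, 8.28 and 8.22 at day 4 and 6.91, 7.21 and 7.11 at day 15 in wild type, a fall of 1.29 ± 0.13 (SE, adjusted p = 7.2e-06). Its dimmer probe set, however, differed by 0.11. Grik1, which is known from sensory pathways, fell by 1.11 ± 0.07 (SE, adjusted p = 1.67e-07), from 8.42, 8.28 and 8.23 to 7.09, 7.24 and 7.26, and Grik5, an auxiliary subunit, by 0.74 (adjusted p = 0.000312). The values of the days were apart for all 3 genes, as they were in Olig2cre/DA-Cat. There Grik3 fell by 1.19, from 8.13, 7.96 and 7.96 to 6.65, 6.71 and 7.13, and Grik1 by 1.32, from 8.46, 8.33 and 8.38 to 7.00, 7.08 and 7.14; Grik5 fell by 0.94. The dimmer probe set of Grik1 differed by -1.10 in wild type but by -0.07 in Olig2cre/DA-Cat (adjusted p = 0.824), where the average of the probe sets fell by 0.69 (limma adjusted p = 0.000256). Grik2 differed by -0.05 and Grik4 by -0.14 in wild type without a call, although another probe set of Grik2 fell by 0.42. Grid1, a delta receptor that binds cerebellins rather than opening to glutamate, fell by 0.45 in wild type (adjusted p = 0.00183) and by 0.42 in Olig2cre/DA-Cat. Its other probe set differed by -0.24 (adjusted p = 0.106) and by -0.0053 (adjusted p = 0.976), and the call in Olig2cre/DA-Cat was lost with averaged probe sets.

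All 6 metabotropic glutamate receptor genes analysed fell in both genotypes. Grm3, a receptor of astrocytes and neurons that lowers cyclic AMP, read 10.48, 10.40 and 10.17 in wild type at day 4 and 8.98, 8.67 and 8.77 at day 15. The 2 days lay far outside each other's range, and the fall was 1.54 ± 0.10 (SE, adjusted p = 2.32e-07). Grm5, which acts through phospholipase C and is known from young astrocytes as well as neurons, went from 10.49, 10.42 and 10.49 to 9.41, 9.58 and 9.36, a fall of 1.01 ± 0.07 (SE, adjusted p = 1.83e-07) that its other probe set showed as -1.22. The presynaptic receptors fell by 0.82 (Grm4), 0.76 (Grm7) and 0.65 (Grm8) in wild type, and Grm2 fell by 0.37, with adjusted p between 5.67e-07 and 0.00252. One dimmer probe set of Grm7 went the other way, higher by 0.40 (adjusted p = 0.0152), and the call of Grm7 was lost when all its probe sets were averaged. In Olig2cre/DA-Cat the falls of the 6 genes ran from 0.58 (Grm2) to 1.78 (Grm3). Grm3 went from 10.56, 10.73 and 10.80 to 9.03, 8.82 and 8.89 there. Grm5 went from 10.74, 10.71 and 10.60 to 9.45, 9.50 and 9.48. Of the astrocyte genes, 6 of 10 rose and 2 fell in wild type, and their mean level was 11.38 to 11.46 on the day 4 arrays and 11.89 to 11.94 on the day 15 arrays, opposite in direction to Grm3 and Grm5; their part was not tested.

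Among the GABA-A receptor genes, falls prevailed in the alpha and gamma families. Gabra5, an alpha subunit of receptors outside the synapse, read 9.75, 9.53 and 9.67 at day 4 and 8.64, 8.70 and 8.64 at day 15 in wild type. It fell by 0.99 ± 0.07 (SE, adjusted p = 4.24e-07), and by 0.95 in Olig2cre/DA-Cat, from 9.77, 9.62 and 9.61 to 8.71, 8.65 and 8.79. The days were apart in both genotypes. Gabra4 fell by 0.50 and Gabra3 by 0.34 in wild type, and by 0.55 and 0.48 in Olig2cre/DA-Cat. The other probe set of Gabra4 fell by 0.34 in wild type but differed by -0.08 in Olig2cre/DA-Cat (limma adjusted p = 0.505). That of Gabra3 differed by -0.15 in wild type (limma adjusted p = 0.142) and fell by 0.22 in Olig2cre/DA-Cat. The gamma subunits, which tie receptors to synapses, fell by 0.47 (Gabrg1) and 0.59 (Gabrg3), and Gabrb1 fell by 0.27. Gabrb2 was not called, with differences of 0.09 (wild type) and 0.18 (Olig2cre/DA-Cat). In Olig2cre/DA-Cat the fall of Gabrb1 was 0.23 (adjusted p = 0.0162), a call lost with averaged probe sets or without day 15 replicate 1 or day 4 replicate 3 of that genotype.

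Gabra2, an alpha subunit of spinal synapses, was the single alpha gene analysed that rose. In wild type it read 8.63, 8.70 and 8.41 at day 4 and 9.11, 8.79 and 9.00 at day 15, a rise of 0.39 ± 0.10 (SE, adjusted p = 0.00577). In Olig2cre/DA-Cat it read 8.94, 8.77 and 9.01 and then 8.83, 8.87 and 8.84, and the difference of -0.05 was not called (adjusted p = 0.684). The wild-type values of the days were apart, those of Olig2cre/DA-Cat overlapped. The difference between the genotypes' day effects was -0.44 ± 0.14 (SE, adjusted p = 0.294), with an unadjusted p of 0.00732 in the same fit, so the genotypes were not shown to differ. Averaged over its probe sets, 2 of which lay under 5, the wild-type difference was 0.16 and not called (limma adjusted p = 0.113). Gabrd, the delta subunit of receptors outside the synapse, lay near background in every group, as did Gabra6 and Gabrq. It read 4.03, 4.18 and 4.14 and then 4.24, 4.28 and 4.57 in wild type, a rise of 0.25 (adjusted p = 0.0404) that was not called in 11 of the 20 alternative fits that held the gene. Those were the fits with trend and robust settings, array weights, averaged probe sets (0.04) or only the groups compared, and those without wild type day 15 replicate 3 or any 1 of the day 4 arrays of either genotype. Its other probe set differed by -0.17. In Olig2cre/DA-Cat it read 4.21, 4.15 and 4.12 and then 4.61, 4.50 and 4.39, a rise of 0.34 (adjusted p = 0.00729). That call was lost with averaged probe sets (0.14, limma adjusted p = 0.193), and the other probe set differed by -0.06. Gabre, at group means of 4.97 to 5.33, was not called. Gabbr1, the subunit of the GABA-B receptor that binds GABA, fell by 0.33 in wild type (adjusted p = 0.00435) and by 0.30 in Olig2cre/DA-Cat, whereas 2 other probe sets above background differed by -0.07 and 0.05.

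Of the chloride cotransporters, Slc12a2 rose between the days and Slc12a5 was not called. Slc12a2, which loads chloride into cells, read 11.32, 11.28 and 11.35 in wild type at day 4 and 12.57, 12.56 and 12.47 at day 15. It rose by 1.22 ± 0.07 (SE, adjusted p = 5.3e-08), or 2.33-fold, and by 1.40 ± 0.07 (SE, adjusted p = 1.26e-08) in Olig2cre/DA-Cat. Slc12a5, the chloride extruder of mature neurons, read 11.65, 11.85 and 11.67 and then 11.57, 11.51 and 11.46 in wild type, a difference of -0.21 that was not called (adjusted p = 0.0576, 95% interval -0.39 to -0.03). It passed as a fall in 5 of 15 alternative fits, among them quantile normalization (limma adjusted p = 0.0352). Over those 15 fits the difference ran from -0.25 to -0.08 (limma adjusted p up to 0.461), and the other probe set of Slc12a5 differed by 0.05. In Olig2cre/DA-Cat Slc12a5 read 11.86, 11.81 and 11.79 and then 11.79, 11.48 and 11.73, a difference of -0.15 (adjusted p = 0.15).

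Between the genotypes, few of these genes differed. At day 4 1 of the 42, Slc12a2, was lower in Olig2cre/DA-Cat and 0 were higher, where 1.81% and 1.3% of all genes were. At an unadjusted p under 0.05, 14 of the 42 passed, beside 20.6% of all genes, and with array weights 4 were called higher, beside 7.29%. At day 15 Slc12a2 was again lower and Grik4 was higher, beside 2.31% and 0.616% of all genes, and 5 of the 42 passed unadjusted, beside 16.9%. The median difference over the members was 0.07 at day 4 and 0.05 at day 15, and over all genes it was 0.03 and 0.02. For genes without a call, differences ran from -0.36 (Gabre) to 0.34 (Grm3) at day 4 and from -0.31 (Grin2c) to 0.28 (Gria1) at day 15. Their 95% intervals, which are not adjusted for the number of genes, had a median half-width of 0.20 at each day. Differences smaller than that were not detectable in most of them, and a call by adjusted p needed a larger one. At day 4, 13 genes without a call passed an unadjusted p under 0.05 in the same limma fit, Grm3 at 0.34 among them.

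**Figure D3:**
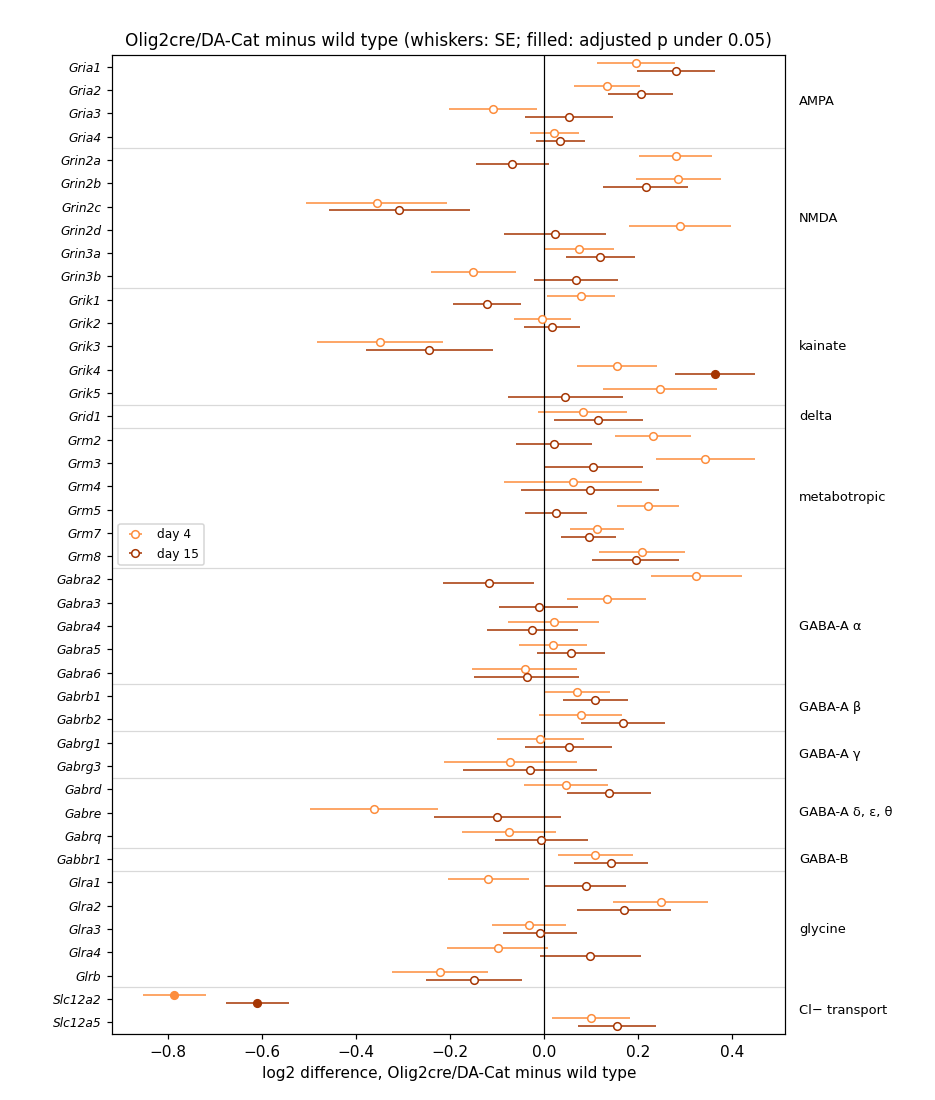
Log2 difference between Olig2cre/DA-Cat and wild type for each of the 42 genes at day 4 (orange) and day 15 (brown), with whiskers of 1 SE and filled points for adjusted p under 0.05. Slc12a2 lies apart at -0.79 and -0.61, Grik4 is filled at day 15 at 0.36, and the other points lie between -0.36 and 0.34.

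Slc12a2 was lower in Olig2cre/DA-Cat at both days. At day 4 the Olig2cre/DA-Cat arrays read 10.48, 10.47 and 10.63, against the wild-type values of 11.32, 11.28 and 11.35. The genotypes were apart, and the gene was lower by 0.79 ± 0.07 (SE, adjusted p = 2.29e-05), or 1.73-fold. At day 15 Olig2cre/DA-Cat read 11.82, 12.01 and 11.94, again under all 3 wild-type values, and the gene was lower by 0.61 ± 0.07 (SE, adjusted p = 0.000804). The other probe sets were lower by 0.83 and 0.92 at day 4 and by 0.71 and 0.77 at day 15. Both calls held in all 15 alternative fits of each day, with differences from -0.84 to -0.76 at day 4 and from -0.70 to -0.56 at day 15. Genotype effects of the 2 days differed by 0.18 (adjusted p = 0.564).

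Myelin genes differed in the same direction as Slc12a2, which neurons and glia both use, between the genotypes and between the days. Of 10 measured genes of mature oligodendrocytes and myelin, 9 were lower in Olig2cre/DA-Cat at day 4 and 8 at day 15, and 10 rose between the days in each genotype. Their mean level was 10.68 to 10.88 in wild type and 8.51 to 8.69 in Olig2cre/DA-Cat at day 4. At day 15 it was 12.69 to 12.78 and 11.92 to 12.28. Of 7 precursor genes 4 were lower at day 4 and 2 at day 15, with mean levels at day 4 of 10.20 to 10.26 in wild type and 9.56 to 9.64 in Olig2cre/DA-Cat. Between the days in wild type, 2 of the 7 rose and 2 fell, beside 21.3% and 23.6% of all genes. The mean level of the 7 in wild type at day 15 was 10.08 to 10.34. The genotype effect differed between the days for 8 of the 10 myelin genes, with a median difference of effects of 1.96, whereas that of Slc12a2 was not called. The part of these cells in the Slc12a2 difference was not tested.

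**Figure D4:**
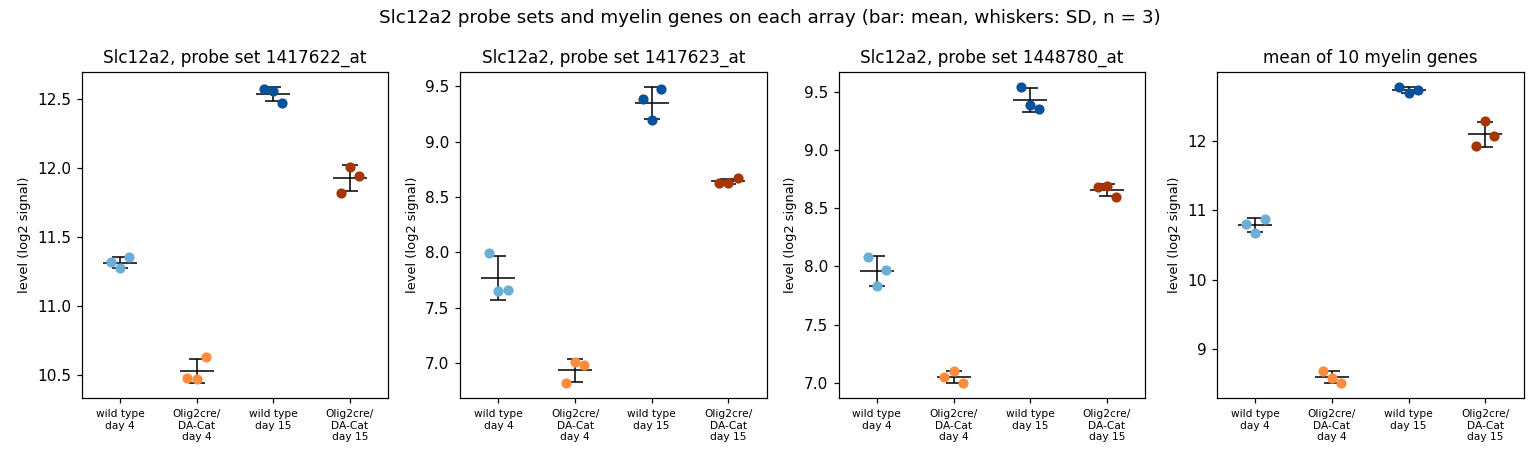
Log2 signal on each array of the 3 probe sets of Slc12a2 and mean log2 signal of 10 myelin genes, with the mean and SD of 3 arrays per group and a scale of its own for each panel. In all 4 panels the Olig2cre/DA-Cat arrays lie under the wild-type arrays of the same day, and the day 15 arrays lie over the day 4 arrays of the same genotype.

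Grik4, a kainate subunit that needs a partner subunit to form channels, read 6.82, 6.68 and 6.83 in wild type and 7.17, 6.98 and 7.27 in Olig2cre/DA-Cat at day 15. The groups were apart, and the gene was higher by 0.36 ± 0.08 (SE, adjusted p = 0.0397); at day 4 it differed by 0.16 (adjusted p = 0.319). This call was lost in 13 of 21 alternative fits. It was lost without wild type day 15 replicate 1, 2 or 3, without Olig2cre/DA-Cat day 15 replicate 1 or 3, and also, through the shared estimate of spread, without wild type day 4 replicate 1 or any 1 of the Olig2cre/DA-Cat day 4 arrays. Over the 15 of these fits other than those that leave out a day 4 array, the limma adjusted p reached 0.157 and differences ran from 0.30 to 0.44. The mean level of skeletal muscle genes at day 15 was 5.05 to 7.42 in wild type and 5.19 to 10.51 in Olig2cre/DA-Cat, and with it as a covariate Grik4 was at 0.31 (limma adjusted p = 0.125). The next genes by p at day 15 were Gria1 and Gria2. Gria1 read 9.32, 9.44 and 9.20 in wild type and 9.69, 9.45 and 9.66 in Olig2cre/DA-Cat, higher by 0.28 without a call (adjusted p = 0.106). Gria2 read 10.63, 10.79 and 10.54 and 10.95, 10.80 and 10.83, a difference of 0.21 (adjusted p = 0.154). The genotypes were apart for both on the probe sets used. As with Grik4 and Slc12a2, choosing genes by p largely ensures this, so it adds no support. Other probe sets of Gria2 differed by -0.05 and 0.46, and that of Gria1 by 0.24, without a call. Gria1 was called higher with averaged probe sets, at 0.26 (limma adjusted p = 0.0326), and without Olig2cre/DA-Cat day 15 replicate 2, at 0.35 (limma adjusted p = 0.0349).

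At day 4 the genes next to Slc12a2 by p were Grin2a, Gabra2 and Grm5. Grm5 read 10.74, 10.71 and 10.60 in Olig2cre/DA-Cat against 10.49, 10.42 and 10.49 in wild type, a difference of 0.22 (adjusted p = 0.0913). Gabra2 differed by 0.32 (adjusted p = 0.0908). It was called in 0 of 15 alternative fits, with differences from 0.09 to 0.39 (limma adjusted p up to 0.551). Its other probe sets above background differed by 0.29 and 0.02. Grin2a, near background, differed by 0.28 (adjusted p = 0.0733). Grin2a was called higher in 3 of 14 alternative fits. These were without wild type day 4 replicate 3 (0.35, limma adjusted p = 0.0344), with quantile normalization (0.32, adjusted p = 0.0489) and with array weights (0.31, adjusted p = 0.0157). The 2 probe sets of Grik1 disagreed. The brighter one differed by 0.08, while the dimmer one read 6.45, 5.86 and 6.71 in wild type and 5.36, 5.43 and 5.11 in Olig2cre/DA-Cat. That difference was -1.04 ± 0.20 (SE, adjusted p = 0.0176) in a limma fit over all single-symbol probe sets, and was chosen for mention after its values were seen.

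The genotype effect itself was compared between the days, which also compares the day effect between the genotypes. In the limma fit for 0 of the 42 genes was a difference of effects called above 0, and for 0 below it, beside 0.192% and 0.159% of all genes. Unadjusted, 2 of the 42 passed a p under 0.05, beside 10.1% of all genes; these were Gabra2 and Grin2a, and the smallest adjusted p was 0.294. Grin2a was at -0.35 (adjusted p = 0.296), Grm5 at -0.20 (adjusted p = 0.519) and Grik1 at -0.20 (adjusted p = 0.548). The sign for Grik1 turned when its probe sets were averaged, to 0.42 (limma adjusted p = 0.433), and its dimmer probe set was at 1.03 (adjusted p = 0.264). The 95% intervals, which are not adjusted for the number of genes, had a median half-width of 0.28. Smaller differences were not detectable in most genes, and a call by adjusted p needed a larger one. For Glra2 the interval ran from -0.39 to 0.23, and for Glra1 from -0.06 to 0.47.

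Genes that work with these receptors were read from lists chosen by function. For comparison, 23.6% of all genes fell and 21.3% rose between the days in wild type, and 26.3% and 21.8% in Olig2cre/DA-Cat. Of 29 measured genes of glutamate receptor auxiliary subunits and scaffolds, 21 fell and 2 rose between the days in wild type, with a median of -0.88, and 23 fell and 2 rose in Olig2cre/DA-Cat. Among them were the cerebellins, synaptic organisers that bind delta receptors, with Cbln4 at -1.51, Cbln1 at -1.33 and Cbln2 at -1.31 in wild type, and Nptx2, a pentraxin that gathers AMPA receptors, at -1.57. Nptx2 was also higher in Olig2cre/DA-Cat, by 0.42 at day 4 (adjusted p = 0.0152) and 0.39 at day 15 (adjusted p = 0.0217), and Cbln1 by 0.28 at day 15 (adjusted p = 0.0368); the other 27 were not called between genotypes. Of 11 genes for scaffolds and trafficking of GABA and glycine receptors 4 fell and 3 rose in wild type, beside 23.6% and 21.3%. Kctd8, an auxiliary subunit of GABA-B receptors, fell by 0.95 and Nlgn2, an adhesion protein of inhibitory synapses, by 0.85, whereas Gabarapl1 rose by 0.67. Gphn, the gephyrin scaffold, fell by 0.28 and was named for its role after its value was seen. Of these 11, 0 were called between genotypes at day 4 or day 15. Few of all genes were, with 1.81% lower and 1.3% higher at day 4, and 2.31% and 0.616% at day 15.

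Genes of transmitter synthesis, vesicle loading and uptake were divided between the days in wild type. Of 17, 6 were higher and 8 lower (median -0.07), beside 21.3% and 23.6% of all genes. Slc1a2, the main astrocyte glutamate transporter, rose by 1.07 and Glul, which makes glutamine, by 0.50, while the glutamate transporters Slc1a6 and Slc1a3 fell by 1.10 and 0.72. Slc6a5, the neuronal glycine transporter and a marker of glycinergic cells, rose by 0.41 in wild type, and the GABA synthases Gad1 and Gad2 fell by 0.29 and 0.39; these 3 were also named for their roles after their values were seen. Of 18 genes of the presynaptic vesicle cycle 9 fell and 6 rose, beside 23.6% and 21.3% of all genes. Stx1a, a fusion protein of the plasma membrane, was at -1.70 and Vamp1, its partner on the vesicle, at 1.10. Between genotypes 0 of the 17 were called at either day. Of the 18 only Syp, a vesicle protein, was, higher by 0.29 at day 15 in Olig2cre/DA-Cat (adjusted p = 0.0268). Among all genes 1.3% were higher and 1.81% lower at day 4, and 0.616% and 2.31% at day 15. Of 12 other genes of chloride transport and its kinases 5 rose and 2 fell in wild type, beside 21.3% and 23.6% of all genes. Car7, the neuronal carbonic anhydrase that fuels bicarbonate flow through GABA-A channels, rose by 1.21, and the kinases Wnk1 and Stk39, which switch on Slc12a2, rose by 0.73 and 0.51. At day 15 Wnk1 was lower in Olig2cre/DA-Cat by 0.37 (adjusted p = 0.00452), as was Car2, a carbonic anhydrase of oligodendrocytes, by 0.57 (adjusted p = 0.00326).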

How the data were processed

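Total RNA of mouse spinal cord was labelled with biotin for Affymetrix 3' arrays, per the labels' protocols. The deposited values are 1 log2 signal per probe set and array; that they are log2 was judged from their range, and the authors' background correction, summary and normalization are not given in the sources used here. Array medians were nearly equal, so a shift shared by most genes cannot be seen. Precision is limited by how many arrays there are.

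Of 45101 probe sets 34958 had 1 gene symbol in GEO's platform annotation, 932 had several and 9211 none; 34754 matched RefSeq (GRCm38.p6) by Entrez identifier, with 0 symbols changed. For each of 18194 genes the probe set with the highest mean was kept; 28 of the 42 members had several. All 12 arrays were fitted with 4 group means in limma 3.58.1 (R 4.3.3; lmFit, contrasts.fit, eBayes), 8 residual degrees of freedom, with Benjamini-Hochberg adjustment over all genes. Adjusted p-values and the unadjusted ones come from that fit, unless an alternative is named. Group means under 5, a level taken from an earlier analysis of these data, were read as near background; 5 members lay there in every group. The fit was tested on simulated data.

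Members and lists were chosen with earlier results of these data known. Named with values in every sample were a panel (Grin2a, Grin2b, Glra1, Glra2, Gabra2, Slc12a2, Slc12a5; a further one was not analysed here), up to 8 members with the highest and 8 with the lowest called difference between the days, and the members called, or the 4 with the smallest p, between genotypes; other lists gave up to 4 genes. List genes without a named probe set were not analysed here. Alternatives were other normalizations, a filter on dim genes, other variance settings, array weights, averaged probe sets, fewer groups, a muscle covariate, the replicate block and leaving out each array.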

Additional observations from a re-analysis of the deposited data

How the results depend on the processing

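No called difference of a member changed sign under any of the 21 alternatives. Of the 29 members called between the days in wild type 25 to 29 kept their call, and of the 31 in Olig2cre/DA-Cat 27 to 31, fewest when all probe sets of a gene were averaged, which lost Gabbr1, Gabra2, Gabrd and Grm7 from the wild-type calls and Gabrb1, Gabrd, Gria1 and Grid1 from the others. For members higher in Olig2cre/DA-Cat at day 4 the count of 0 became 1 with quantile normalization and 4 with array weights, and 0 to 1 on leaving out an array; the count of 1 lower became 2 with averaged probe sets. At day 15 the count of 1 higher became 0 with quantile normalization, with centred arrays, from the day 15 arrays alone and with the muscle covariate, 2 with averaged probe sets, and 0 to 2 on leaving out an array; the gene that lost its call was Grik4. The cause was not tested beyond the construction of each alternative. The difference of effects gave 0 calls in every one of its 20 alternatives. Scaling moved the median of all genes by at most 0.02.

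The replicate numbers were not taken to pair the arrays: correlations of deviations between same-numbered arrays ran from 0.03 to 0.30 at day 4, 0.02 to 0.18 at day 15 and -0.30 to 0.10 across days. At day 4 5 of 6 arrays and at day 15 4 of 6 correlated best with their own number in the other genotype, which is a hint from the data and not from the design. With the number as a replicate block, 6 members rose and 24 fell between the days among wild-type arrays, 7 and 24 among Olig2cre/DA-Cat arrays, with 0 and 1 between genotypes at day 4 and 1 and 1 at day 15.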
